A study of Mus musculus with 6 samples.

Results

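PPP1R14B (Entrez Gene 26472) and PALM (Entrez Gene 5064) were followed across 6 arrays that set a C2C12 mouse myoblast clone labelled as MyoD-silenced against control cells. Both genes were chosen by their scores, because PPP1R14B peaked and PALM dipped on both arrays of day 3. Their values on all 6 arrays are therefore described here, and no test of their pattern is given. They are 2 of the 1521 genes named on the array, and each has 1 probe in 2 duplicate spots, so 4 of 5376 spots carry the values of this account. C2C12 is an established line from C3H mouse muscle that fuses into myotubes in low-serum medium. The test cells were 1 clone, MyoD(-)cl.A8, which carries the MyoD transcript in antisense direction in the pcDNA 3.0 vector and was selected with G-418. The reference was C2C12 control cells at the matching stage, and the labels do not say whether these carried an empty vector. RNA was taken after 1, 3 and 6 days in differentiation medium. Each day had 2 arrays of the same RNA pair, with the clone in Cy5 on replicate A and in Cy3 on replicate B. A day's arrays are thus 1 replicate, and the spread between them holds dye and array error but no spread between cultures.

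PPP1R14B encodes a small inhibitor of protein phosphatase 1, the enzyme that removes phosphate from the regulatory light chain of myosin and from many other proteins. Phosphorylation by kinases such as protein kinase C makes inhibitors of this family active. PALM encodes paralemmin, a lipid-anchored phosphoprotein on the inner face of the plasma membrane that is linked to cell shape and to membrane extensions. MyoD is a basic helix-loop-helix transcription factor that drives muscle differentiation and binds the E-box, a short DNA element.

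Because MyoD binds E-boxes, the 250 bases before the start of each mouse gene were searched for CANNTG, the general E-box, and for CAGCTG, a form that MyoD binds well. Both motifs read the same on either strand, and CAGCTG is one form of CANNTG. The sequences come from RefSeq on GRCm38.p6, 5′ to 3′, with any CANNTG in capitals. Both members matched a mouse gene of the same symbol, on the plus strand, at chr19:6974798-6975047 for Ppp1r14b and at chr10:79793322-79793571 for Palm. The windows end at the base before the annotated genes, chr19:6975048-6977324 and chr10:79793572-79820915.
Ppp1r14b: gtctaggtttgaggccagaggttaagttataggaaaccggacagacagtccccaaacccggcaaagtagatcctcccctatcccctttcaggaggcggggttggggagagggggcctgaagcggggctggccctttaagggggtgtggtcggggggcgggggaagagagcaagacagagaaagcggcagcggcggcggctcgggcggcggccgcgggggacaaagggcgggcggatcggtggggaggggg
Palm: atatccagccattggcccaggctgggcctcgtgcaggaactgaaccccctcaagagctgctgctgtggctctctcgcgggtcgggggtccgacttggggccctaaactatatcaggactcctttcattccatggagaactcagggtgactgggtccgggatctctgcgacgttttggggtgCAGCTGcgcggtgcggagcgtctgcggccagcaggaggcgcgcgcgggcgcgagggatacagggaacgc
The Ppp1r14b window held 0 matches to CANNTG. The Palm window held 1, a CAGCTG between positions -69 and -64 from the start site. Of 32851 such windows, 66.2% held CANNTG and 13.0% held CAGCTG. Both windows were rich in G and C, with 66.8% in Ppp1r14b and 64.4% in Palm, against a median of 52.4% over all windows. These matches describe the letters of the windows, and binding was not measured.

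The labels state neither the scale nor the centring nor the direction of the deposited spot scores, so differences are given in score units and no folds are given. A positive score was read as more RNA in the clone, on both arrays of a day. This is a likely direction, since the labels name the clone as test and the control as reference. After averaging of duplicate spots and of probes, 2466 features were measured, and each array was centred on its median. The features' scores correlated at 0.16 to 0.21 between the arrays of a day and at -0.08 to 0.12 between arrays of different days. The duplicate spots of all probes correlated at 0.25 to 0.60 within arrays. The RNA scores of the targeted gene did not bear out the label of the clone. Its protein was not measured, so they do not show whether silencing failed. MYOD1, with 1 probe, read 0.41 and -0.36 on day 1, 1.11 and -1.03 on day 3 and 0.50 and 0.26 on day 6, so that 0 of 3 day means lay below 0. Whether its probe also reads the antisense transcript was not tested. The probes were made for human genes, and cross-binding of other mouse RNAs was not tested. RefSeq also lists a mouse gene Ppp1r14bl, a like-named relative whose RNA the PPP1R14B probe was not tested against.

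PPP1R14B stood highest on day 3, while its position on day 1 depended on 1 discordant spot, described below. Its score was 1.27 on replicate A and -2.54 on replicate B of day 1, 6.24 and 4.87 on day 3, and -1.59 and -2.05 on day 6. Both day 3 arrays lay above all 4 others, and the nearest of these was 3.60 units away. The day means were -0.64 ± 2.70 on day 1, 5.56 ± 0.97 on day 3 and -1.82 ± 0.33 on day 6 (SD over the 2 arrays of 1 RNA pair). The day 3 mean exceeded that of day 1 by 6.19 units, and from day 3 to day 6 it fell by 7.38 units. On day 6 both arrays stood below 0, at ranks 209 and 95 from the lowest among 2466 features.

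The duplicate spots of PPP1R14B matched closely on 3 of the arrays and differed greatly on 1. On day 3 the first spot read 6.49 on replicate A and 6.21 on replicate B, and the second spot 6.00 and 3.54. All 4 spot values of day 3 lay above every other value of the gene. On day 6 they were -1.65 and -2.0 in the first spot and -1.54 and -2.11 in the second, so that the spots lay within 0.115 units of each other on each array. On day 1 replicate B, however, the first spot read -7.85 and the second 2.76. That gap of 10.6 units was the largest of all 2688 probes on the array, where the median gap was 1.06. The mean of -2.54 printed for that array is thus an average of spots with opposite signs. The other day 1 array gave 2.05 and 0.50.

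The position of PPP1R14B on day 1 depended on this spot. Without it, the day 1 mean was 2.02 in place of -0.64, and the day 3 arrays lay 2.11 units above the nearest other array. With the first spots alone the day 1 mean was -3.22 and the distance 3.99. With the second spots alone the day 1 mean was 1.93 and the distance 0.78, less than the 2 units used as a threshold below. The day 3 mean itself was 6.03 in the first spots and 5.05 in the second. Day 3 remained the highest day in either spot, whereas the order of days 1 and 6 was reversed between them.

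**Figure D1:**
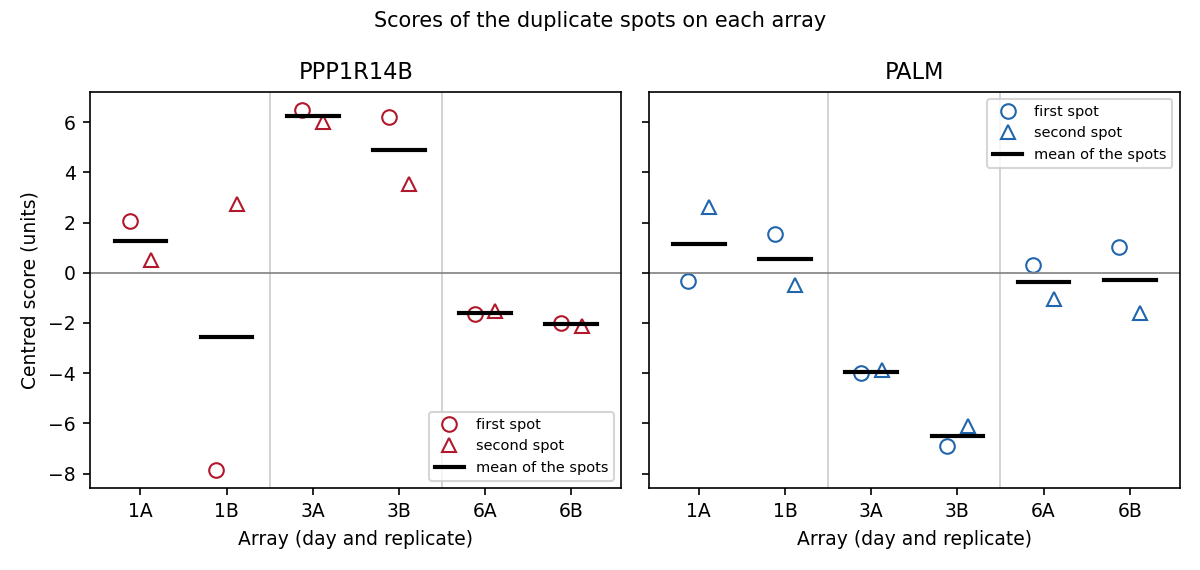
Centred scores (in score units) of PPP1R14B and PALM on the 6 arrays, named by day and replicate; circles and triangles are the duplicate spots and black bars their mean. The 4 spot values of day 3 lie together for each gene, between 3.54 and 6.49 for PPP1R14B and between -6.91 and -3.88 for PALM, and the spots of PPP1R14B on day 1 replicate B lie at -7.85 and 2.76.

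PALM stood low on day 3 and near 0 on the other days. Its score was 1.16 and 0.54 on the day 1 arrays, -3.94 and -6.51 on those of day 3, and -0.35 and -0.28 on those of day 6. Both day 3 arrays lay below all 4 others, with 3.59 units to the nearest. The day means were 0.85 ± 0.44, -5.23 ± 1.82 and -0.32 ± 0.05 (SD over the 2 arrays of 1 RNA pair). From day 1 to day 3 the mean fell by 6.08 units, and from day 3 to day 6 it moved back by 4.91.

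The spots of PALM were close on day 3 and apart on the other days. They read -4.01 and -3.88 on replicate A of day 3 and -6.91 and -6.12 on replicate B. On day 1 they read -0.32 and 2.64 on replicate A and 1.56 and -0.49 on replicate B, so that on each array the spots had opposite signs. The same held on day 6, with 0.33 and -1.03 on replicate A and 1.03 and -1.60 on replicate B. The day 6 mean was 0.25 in the first spots and -0.88 in the second, and the narrow SD of 0.05 between the day 6 arrays does not show this spread. The distance from the day 3 arrays to the nearest other array was 3.71 units in the first spots and 2.56 in the second.

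Side by side, PPP1R14B lay 10.8 units above PALM on day 3, at 10.2 on replicate A and 11.4 on replicate B. On day 6 the difference, PPP1R14B minus PALM, was -1.24 on replicate A and -1.77 on replicate B. On day 1 it was 0.11 on replicate A and -3.08 on replicate B, the array with the discordant spot. The genes were thus in opposite order on day 3 and day 6, while day 1 gave no common order with both spots averaged. Without the discordant spot, PPP1R14B read 2.76 on day 1 replicate B, against 0.54 for PALM. Both day 1 arrays then put PPP1R14B above PALM, on replicate A by only 0.11.

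Among all features, with the probes of a gene averaged, PPP1R14B had the highest day 3 mean and PALM the second lowest of 2466. Taken singly, a MYH7 probe at -5.92 and a STARD10 probe at -5.73 had lower day 3 means than PALM. On the single arrays of day 3, PPP1R14B ranked 4 from the highest on both, and PALM ranked 8 from the lowest on replicate A and 2 on replicate B. Both genes were at least 2 units from 0 on both day 3 arrays, as were 11 features on the higher side (0.446%) and 20 on the lower side (0.811%). These values chose the members, so the shares are given as a description only. On day 1 neither member reached 2 units on both arrays, where 0.527% of features did on the higher and 0.284% on the lower side. On day 6 neither did so either, against 0.689% and 1.14%, although PPP1R14B did on replicate B.

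Few features had day 3 arrays as far from the rest. In 3 features (0.122%) both day 3 arrays lay at least 2 units above all 4 others. They were PPP1R14B, the sarcomere-associated ubiquitin ligase TRIM54, 2.68 units from the nearest other array, and a probe without a gene name, at 2.11 units. In 2 features (0.0811%) they lay at least 2 units below. These were PALM and the slow myosin heavy chain MYH7, at 2.80 units. The features besides the members were singled out after their values were seen. With spots and the probes of a gene averaged, PPP1R14B and PALM had the largest distances in their directions. A MYH7 probe taken singly read -5.02 and -6.81 on day 3 and no lower than -0.73 on the other arrays. PALM read -3.94 and -6.51 on day 3 and no lower than -0.35 on the others. That single probe thus stood farther from its other arrays than PALM. Without the discordant day 1 spot, however, PPP1R14B was 2.11 units away, less than TRIM54, and in the second spots 0.78. PALM was 2.91 units away with neighbouring probes subtracted and 2.56 in the second spots.

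**Figure D2:**
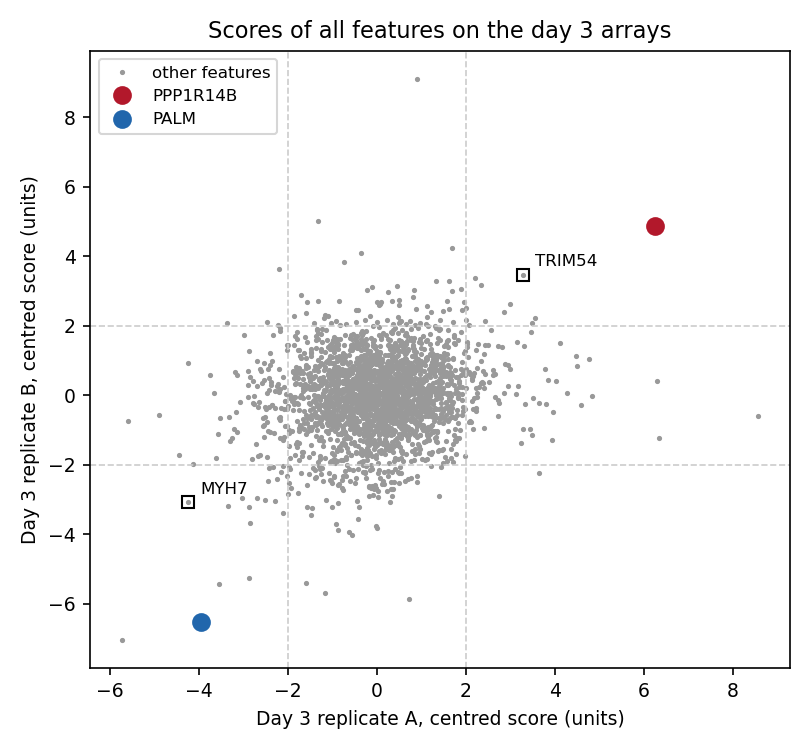
Centred scores (in score units) of the 2466 features on day 3 replicate A (x axis) and replicate B (y axis); dashed lines mark 2 units from 0. PPP1R14B lies at 6.24 and 4.87 and PALM at -3.94 and -6.51, in opposite corners, with TRIM54 and MYH7 on the same sides.

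The arrays of a day differ in which dye the clone carried. If the scores of both arrays set the clone against the control, replicate A minus replicate B, divided by 2, holds what does not turn with the dyes. Array error is held in it too. The labels do not state that direction. For PPP1R14B it was 0.68 on day 3, against a median size of 0.487 over all features, and 0.23 on day 6. For PALM it was 1.28 on day 3, larger than in 90.8% of features, and -0.03 on day 6. On day 1 it was 1.91 for PPP1R14B, larger than in 99.1% of features, on the arrays with the discordant spot. On day 3 these values were smaller in size than the members' means. The members were chosen for the same direction on both day 3 arrays, so this is no test of a dye effect.

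The probes nearest to each member in probe order lay closer to 0 on day 3. Most probes would do so, since the members were chosen for their day 3 scores, and a local effect of the array was not tested. Within 10 places on either side of PPP1R14B, the 20 neighbouring probes had day 3 means from -0.92 to 2.14, with a median of 0.15. The highest was its direct neighbour UBXN6. Around PALM the 20 neighbours ranged from -0.94 to 1.78, with a median of 0.25. In neither case did one of these 20 reach 2 units on both day 3 arrays. Of the 40 probes within 20 places of PPP1R14B, 2 did so on the higher side, CCDC124 at 2.87 and 2.40 and USP24 at 3.48 and 2.08, each 12 places away, and 1 on the lower side, a STARD10 probe. Of the 40 around PALM, 0 did. Of all 2688 probes taken singly, 37 did so on either side, a share that would also give 0 among 20 or 40 probes. The counts within 20 places of PPP1R14B lay above that share, and the cause was not tested. With the median of 10 neighbours subtracted, every other probe from the second to the tenth place on each side and thus without UBXN6, the day 3 mean was 5.46 for PPP1R14B and -5.07 for PALM.

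**Figure D3:**
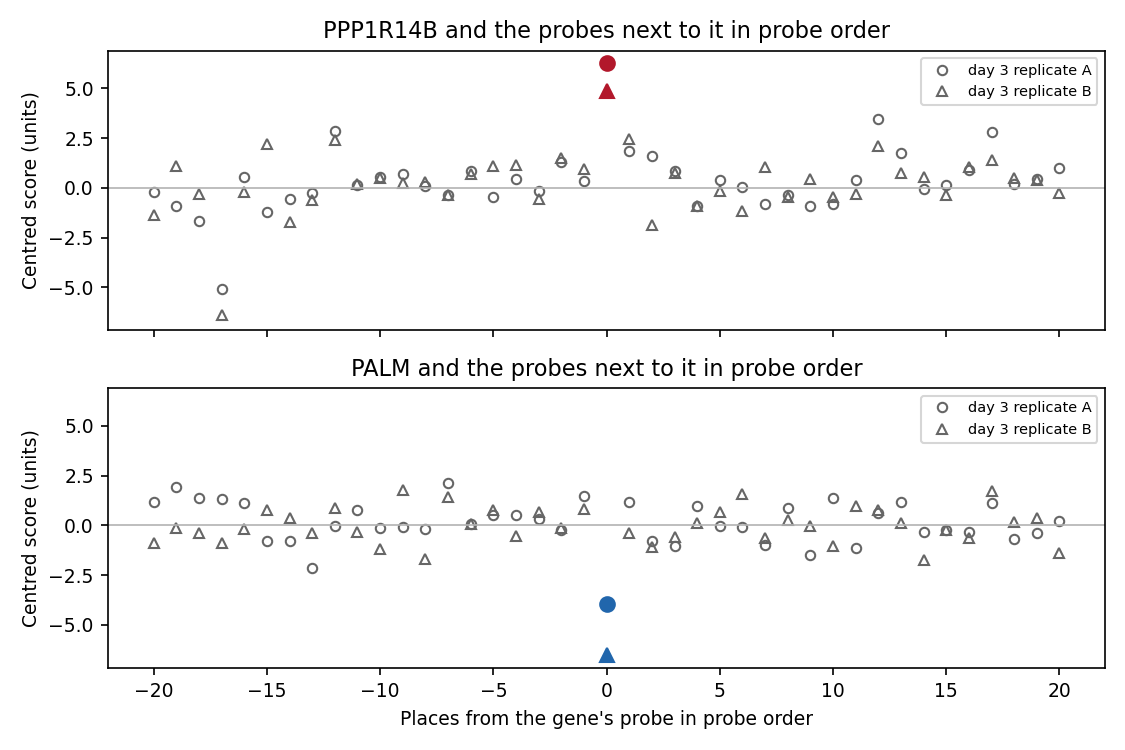
Centred day 3 scores (in score units) of the probes within 20 places of PPP1R14B and PALM, by their distance in probe order; circles are replicate A and triangles replicate B, and the filled symbols at 0 are the members. The members were chosen for their day 3 scores, and the 20 probes nearest to each have day 3 means between -0.94 and 2.14. Farther from PPP1R14B, 3 probes are past 2 units on both arrays, against 37 of all 2688 probes. CCDC124 and USP24, 12 places before and after it, are high, and a STARD10 probe 17 places before it is low.

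The named genes with scores most like PPP1R14B over the 6 arrays, by Euclidean distance, were TRIM54, YBX1, UBAC1, RPL35 and MT2A. TRIM54 lay 5.0 units away, and the others between 5.06 and 5.85, while a gene at 0 on every array would lie 8.81 away. TRIM54 stood at 3.28 and 3.48 on day 3 and between -0.19 and 0.60 on the other arrays, so it shared the peak without the low day 6 of PPP1R14B. YBX1, a cold-shock-domain protein that binds RNA, stood at 4.48 on replicate A but 1.12 on replicate B of day 3. UBAC1, a subunit of a ubiquitin ligase complex, had 2.57 and 1.87. The ribosomal protein RPL35, with 1.99 and 2.52 on day 3, was also below 0 on day 6, at -1.38 and -2.69. The metallothionein MT2A had 3.00 and 2.64 on day 3, and its day 6 mean of -1.64 came from replicate A, at -3.22, with -0.06 on replicate B.

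The named genes most like PALM were KLHDC3, MYH7, ABTB2, IFITM1 and STARD10, at distances of 2.91 to 4.55 units, against 7.73 for a gene at 0 throughout. KLHDC3, a substrate receptor of a ubiquitin ligase, stood at -1.58 and -5.39 on day 3, lower on replicate B as PALM was. MYH7 stood at -4.24 and -3.08. It was measured by 5 probes, whose day 3 means ran from -5.92 to -2.35, and 3 of them reached 2 units on both arrays. The interferon-induced membrane protein IFITM1, at -2.70 and -2.96, and ABTB2, at -2.11 and -3.38, had 1 probe each. STARD10, a lipid transfer protein, had 2 probes that differed, with day 3 means of -5.73 and 0.40.

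With the sign turned, the genes nearest to PPP1R14B were MYH7, PALM and NECTIN2, a cell adhesion protein, at distances of 4.72, 5.21 and 5.27. NECTIN2 stood at -4.89 on replicate A of day 3 but at -0.57 on replicate B. The mirror image of PALM was closest to TRIM54 at 3.61, to the ATP synthase subunit ATP5MK at 3.92 and to DMAP1 at 4.21. The members correlated with each other at -0.80 over the 6 arrays, a description of arrays on which both were chosen for day 3. These neighbours depended on the measure. By Pearson correlation, 2 of the 5 genes nearest to PPP1R14B were the same (UBAC1 and TRIM54), and 1 of the 5 nearest to PALM (STARD10). UBXN6, which has a probe directly beside that of PPP1R14B, was also among the 5 for PPP1R14B by correlation, at r = 0.96 with its probes averaged. MIF, a secreted cytokine, then led for PALM with r = 0.98 over 6 arrays, with day means of -1.77, -4.49 and -1.97. In the first spots alone 1 of the 5 genes nearest to PPP1R14B was kept, and 2 in the second spots. For PALM 4 of the 5 were kept in the first spots and 2 in the second.

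**Figure D4:**
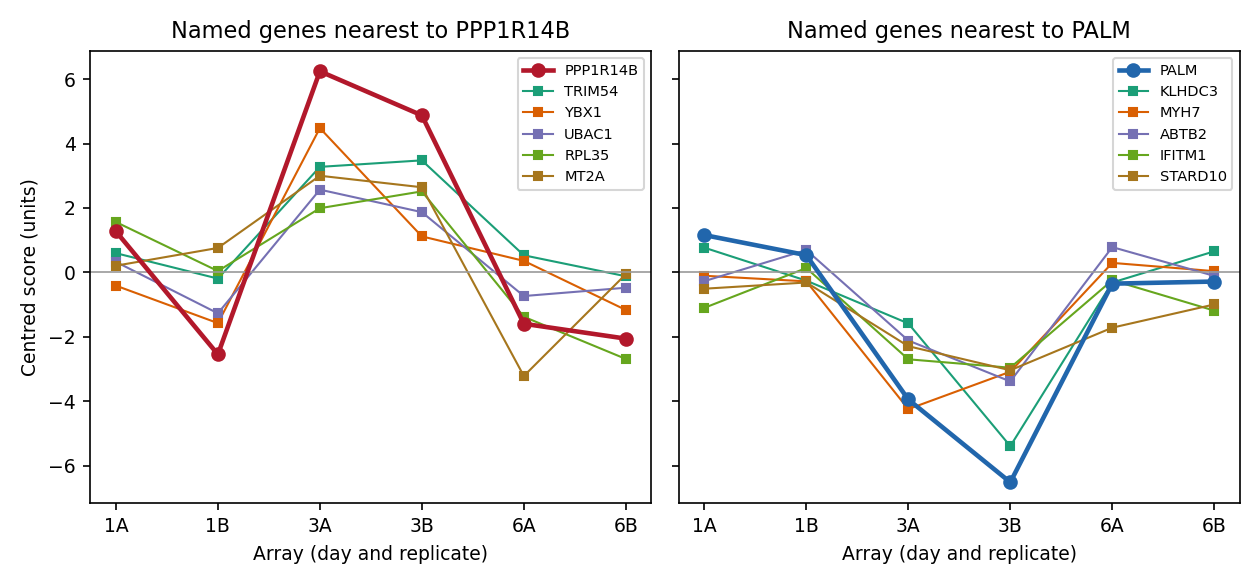
Centred scores (in score units) on the 6 arrays of each member and of the 5 named genes with the smallest Euclidean distance to it; lines only join the values of a gene. Each set is highest or lowest on the day 3 arrays, where PPP1R14B reaches 6.24 and PALM -6.51.

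Of 39 genes of protein phosphatase 1 and its regulators, 6 were measured, and neither a catalytic subunit nor another PPP1R14 inhibitor was among them. Of the 5 besides PPP1R14B, 0 reached 2 units on both arrays on any day, a count that shares of 0.284% to 1.14% over all features would also give. On day 3 their median was 0.36, against 0.00 over all features, with 3 above 0 and 2 below. PPP1R1A, another phosphatase inhibitor, was highest with 1.12 and 1.59, after -1.01 and -0.86 on day 1 and -0.15 and 0.27 on day 6. Its day 3 arrays lay above its 4 others, as those of PPP1R14B did, but closer to them. Of all 2466 features, 386 had day 3 arrays above or below all their others by any distance. PPP1R3C, a glycogen-targeting subunit, stood at 0.38 and PPP1R16A at 0.36 on day 3, with PPP1R15A at -0.18 and PPP1R7 at -0.51.

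Of 32 genes of myosin light chain phosphorylation, 7 were measured, and 6 of them lay below 0 on day 3. Their median was -0.53, against 0.00 over all features, which fall about evenly on either side of 0. The GTPase RHOC was lowest at -1.48, followed by MYLK2, the skeletal muscle light chain kinase, at -1.29 and the light chain MYL9 at -1.12. These 3 were below 0 on both day 3 arrays, but none reached 2 units. At the upper end RHOA stood at 0.76, MYL6B at -0.02 and RHOB at -0.08, and the arrays of each differed in sign. So did those of MYL12A, at -1.33 and 0.28. Of 29 other serine/threonine phosphatase genes, 6 were measured, with a day 3 median of -0.19. They ran from PPP2R3A at -0.98, PPM1G at -0.59 and PPP2R2D at -0.55 to PPP4C at 0.17, PPP3CA at 0.76 and PPP2R1A at 0.94. In both lists 0 genes reached 2 units on both arrays of any day, which the same shares of 0.284% to 1.14% over all features would also give.

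Of 18 genes of the paralemmin family and of lipid-anchored cortex proteins, PALM and PALMD were measured. PALMD, the paralemmin relative palmdelphin, stood at -0.33 and -2.46 on day 1, at -0.07 and -0.65 on day 3 and at 0.21 and -0.38 on day 6. It did not share the day 3 value of PALM. Of 34 genes of the muscle membrane skeleton, 7 were measured, with a day 3 median of -0.59. SGCA, the dystrophin-associated alpha-sarcoglycan, was at least 2 units higher on both day 3 arrays, at 2.06 and 2.02, which is 1 of 7 genes against the 0.446% given above. ITGA7 stood at 0.66 and SGCB at 0.09, while TLN1 at -0.96, DYSF at -0.78 and ANXA5 at -0.70 were the lowest.

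Over the 3 days together, the listed genes were tested with limma on the day means (n = 3 days, two-sided, Benjamini-Hochberg over all 2466 features). Of all features 5 were called with scores above 0 (0.203%) and 4 below (0.162%). Of the 26 genes in these 5 lists besides the members, 0 passed. In limma 2 had an unadjusted p under 0.05, both in the membrane skeleton, against 164 of all 2466 features. This count is near the share over all features and gives no result about that list. The smallest adjusted p was 0.255 in limma, for ANXA2, an annexin that binds membranes, whose scores lay below 0 on 6 of 6 arrays and averaged -1.47 ± 0.77 (SD, n = 3 days). This test asks for the same direction on all days and does not address a change on a single day, as described for PPP1R14B and PALM.

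Muscle and other lineage markers were set beside the members. The scores compare clone with control and give no level in either, so they cannot show whether a marker is present. Of 15 measured genes of differentiated muscle, MYH7 was at least 2 units lower on both day 3 arrays, and 0 were higher, against 0.811% and 0.446% of all features. MYH1, a fast myosin heavy chain, was next lowest on day 3, at -3.61 and -1.80, and MYH2 stood at -0.50. At the upper end MB, or myoglobin, stood at 1.18, TNNC1 at 1.06 and ACTC1 at 0.72, and the list's median was -0.13. Of 11 markers of other lineages 4 were measured, with day 3 means from -1.56 for SCD and -0.73 for TAGLN to 0.12 for CNN1 and 0.27 for FABP4. In limma over the days 0 genes of either list passed, with 0 at an unadjusted p under 0.05, against 164 of all 2466 features. The part of muscle differentiation in the members' day 3 scores was not tested.

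**Figure D5:**
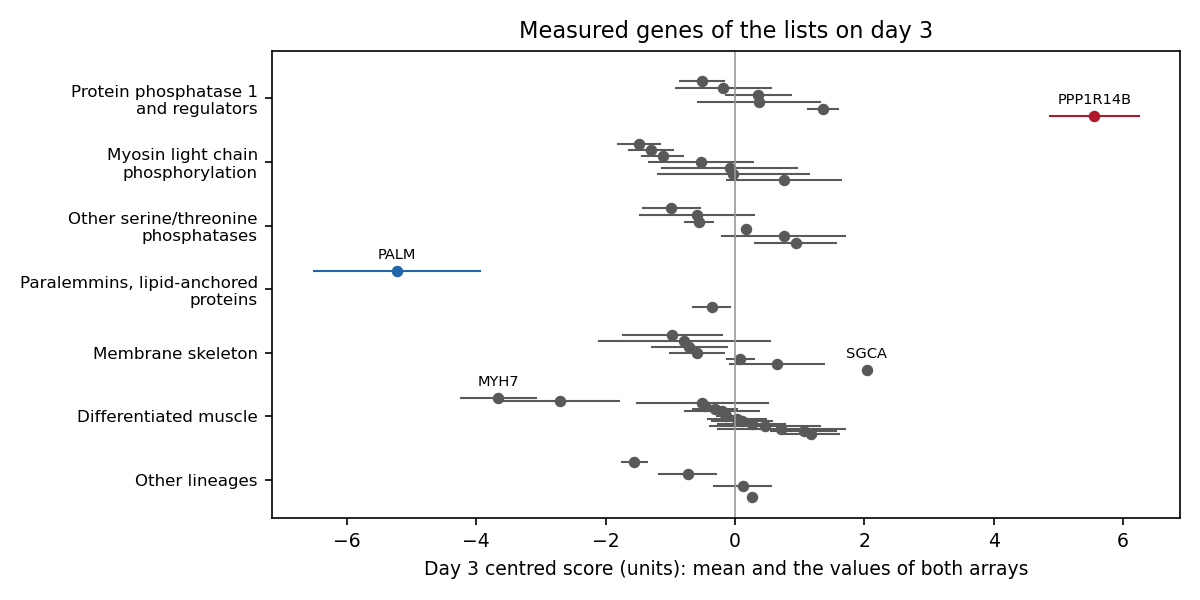
Day 3 centred scores (in score units) of the measured genes of 7 lists; points are the mean of the day's arrays and lines join the values of replicates A and B. PPP1R14B (5.56) and PALM (-5.23), which were chosen for their day 3 scores, stand outside the range of the other genes. With the probes of a gene averaged, that range runs from -3.66 (MYH7) to 2.04 (SGCA). A MYH7 probe taken singly had a day 3 mean of -5.92, lower than PALM.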

How the data were processed

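The authors deposited 1 signed score per spot for each of the 6 two-colour arrays. Trizol extraction and tyramide signal amplification are named per the labels' protocols; filters, normalization and scale are not given in the sources used here. Duplicate spots were averaged to 2688 probes, probes of a gene to features (2466, of which 945 are probes without a gene name), and arrays centred on their medians. Gene symbols come from the platform annotation. The threshold was 2 units in the same direction on both arrays of a day. The named genes are the members, the 3 highest and 3 lowest of each list on day 3, and the genes nearest to each member (5 alike, 3 of the mirror image). The members and lists were chosen with earlier results of these data known. Tests across all features used limma 3.58.1 in R 4.3.3 (intercept, 3 day means, threshold 0.05), checked on simulated data. The simulated errors were independent and the effects the same on all 3 days, so the check does not cover effects that change between days. The spread in the limma test is that between the day means, which holds changes over the days together with array error. No label says that the days came from separate cultures, so the p-values may hold no spread between cultures. Figures used Python 3.11.15 and matplotlib 3.10.9. Alternatives were other scalings, spots, thresholds, neighbours subtracted and arrays or days left out; the nearest genes and distances by spot and the omission of 1 spot were chosen after seeing the data.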

Additional observations from a re-analysis of the deposited data

Results flagged for a closer look

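For some genes both arrays of a day lay on one side of 0 and both arrays of another day on the other side; these differences between days were not tested. For PPP1R14B the mean moved by -7.38 units from day 3 to day 6. For PALM it moved by -6.08 from day 1 to day 3 and, with a day 6 mean near 0, by -1.16 from day 1 to day 6; its spots disagree in sign on all 4 arrays of days 1 and 6. Among the genes nearest to the members, the move from day 1 to day 3 was 3.79 in YBX1 (2.11 without replicate A of day 3) and 3.17 in DMAP1. From day 3 to day 6 it was -2.82 in UBAC1, -4.29 in RPL35, -4.46 in MT2A, 3.83 in MYH7 and 4.06 in NECTIN2. Single arrays carried part of this: the move in MT2A was -2.88 without replicate A of day 6, and that in NECTIN2 was 1.90 without replicate A and 6.22 without replicate B of day 3. From day 1 to day 6 it was -2.83 in RPL35, -2.12 in MT2A and 0.36 in MYH7. Without replicate A of day 6 it was -0.54 in MT2A and 0.23 in MYH7, and without replicate B it was -3.70 in MT2A. The other moves given here changed by less than 1.5 times when any 1 array of their days was left out.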

How the results depend on the processing

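The day 3 means of the members, which chose them, ran from 5.05 to 6.03 for PPP1R14B and from -5.77 to -4.72 for PALM over other spots, scalings and neighbours subtracted, and leaving out 1 array gives the other array's own score; each has 1 probe, so separate probes give no other value. The count of 31 features past 2 units on both day 3 arrays was 204, 79 and 7 at 1, 1.5 and 3 units. The count of 5 features with day 3 arrays at least 2 units beyond the others was 386, 53 and 2 at 0, 1 and 3 units, and 8 to 72 with any of the 6 arrays left out, which asks for fewer arrays to stand apart. The distance for PPP1R14B was 0.78 in the second spots, against 3.60. The 9 features changed over the days in limma became 4 among named genes, 4 with neighbours subtracted, 5 with the dye orientation as a replicate block, and 0 to 8 with single arrays left out, at or under 5 without replicate B of day 1, either array of day 3 or replicate A of day 6. They became 29 without day 1 and 0 without day 3 or day 6 (119 and 140 at an unadjusted p under 0.05), and 0 without day 3 replicate A (153). The cause of these moves was not tested. The letters A and B name the dyes, and the deviations of arrays with the same letter correlated at -0.04 to 0.00 between days, so they do not pair the samples. The number of arrays limits the precision; signal over background is unknown.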
